A study of Mus musculus with 18 samples.

Results

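The size of the muscle response to single-stranded RNA (ssRNA) was compared between dysferlin-deficient A/J mice and dysferlin-sufficient A/JOlaHsd mice, gene by gene. The samples were chosen by strain and injection, which gave 11 of the 18 bead arrays of the study: 3 of A/J ssRNA legs, 3 of A/J saline legs, 2 of A/JOlaHsd ssRNA legs and 3 of A/JOlaHsd saline legs. A/JOlaHsd ssRNA array 2 was left out, since its mean intensity was -0.333 and 3.71% of its probes passed a detection p of 0.05. All mice were 2 months old. The tibialis anterior of one leg was injected with ssRNA and that of the opposite leg with saline, 3 times within 10 days with 3 days of recovery between injections. A/J is labelled dysferlin deficient and A/JOlaHsd wild-type and dysferlin sufficient. Both are inbred substrains, so dysferlin and any other difference between them cannot be told apart. Whether the arrays came from separate animals is not in the labels, so the p values measure the spread between arrays, which may be technical.

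Dysferlin is a membrane protein of muscle fibres that acts in resealing of the damaged plasma membrane, and A/J mice carry a retrotransposon insertion in its gene. Single-stranded RNA is a ligand of TLR7 in endosomes, which signals through the adaptor MyD88 to NF-kappaB and interferon regulatory factors and raises cytokines, chemokines and interferon-induced genes. In muscle, the cells that carry TLR7 are mainly leukocytes, and macrophages enter the tissue when fibres are injured or inflamed.

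The comparisons are differences of normalized log2 intensity, on which 1 is a 2-fold change. The response of a strain is its ssRNA legs minus its saline legs. The response difference is the response of A/J minus that of A/JOlaHsd. The same number is the strain difference (A/J minus A/JOlaHsd) in ssRNA legs minus the strain difference in saline legs, so each response difference was also read by the legs in which the strains differed. A gene was called when its adjusted p in limma was under 0.05 over 11233 genes, and ± beside a difference is its standard error.

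The A/JOlaHsd arrays had the weaker signal. Mean intensities were 120.5 to 147.3 on the 6 A/J arrays and 37.36 to 50.22 on the 5 A/JOlaHsd arrays, with 37.21% to 42.42% and 28.92% to 33.24% of probes detected. Strain and this difference in array signal cannot be told apart, and strain differences within a leg rest on the joint normalization of all arrays. Arrays also differed within groups. A/JOlaHsd saline 3 had macrophage and matrix gene levels above those of the other 2 saline arrays of its strain, and the calls that changed without it are named. A/J saline 1 and A/J ssRNA 1 had the highest interferon-induced and MHC class I levels of their groups, with values given beside those genes. The muscle genes Acta1, Ckm, Mb, Myh4, Tnnt3 and Des were above background on all 11 arrays, at levels of 9.85 (the lowest, Myh4) to 13.7 (the highest, Ckm).

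Dysf, the dysferlin gene, stood at 5.66, 5.80 and 5.63 in A/J ssRNA legs, 6.13, 6.21 and 6.04 in A/J saline legs, 9.34 and 9.64 in A/JOlaHsd ssRNA legs and 9.71, 9.41 and 9.66 in A/JOlaHsd saline legs. Every A/J array was below every A/JOlaHsd array, by -3.80 in ssRNA legs and -3.47 in saline legs (adjusted p = 1.84e-10 and 1.32e-10). The response of Dysf differed between strains by -0.33 ± 0.21, which was not called (adjusted p = 0.357). Of its 3 further probes, 2 also put A/J below A/JOlaHsd in both legs and 1 put it above, and none had a called response difference.

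The response was wider in A/J. In A/J, 1394 genes (12.4% of those tested) rose and 1124 (10.0%) fell, 2518 in all (22.4%). In A/JOlaHsd, 103 (0.917%) rose and 110 (0.979%) fell, 213 in all (1.90%). The SD of the response over all genes was 0.52 in A/J and 0.304 in A/JOlaHsd, beside median standard errors of 0.165 and 0.184. The count in A/JOlaHsd rested on the setting: it was 12 when the 11 arrays were normalized and fitted alone and 0 with median centring, with genes detected on all 11 arrays only, with each strain normalized alone and with array weights by strain. In A/JOlaHsd 1582 of 11233 genes passed an unadjusted p under 0.05, and 729, 601, 510 and 584 did under those last settings. The 601 are of 6722 genes tested and the others of 11233. With no difference at all, a share of about 0.05 of the genes tested would pass.

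The responses of the strains share no array. Across the 11233 genes they had a Pearson correlation of 0.285 and a Spearman correlation of 0.165, a description over genes that are not independent replicates. The 1394 genes that rose in A/J had a median response of 0.139 in A/JOlaHsd, positive for 977 of them (70.1%), beside 0.861 in A/J, the values that chose them. The 1124 genes that fell in A/J had a median of -0.0396 in A/JOlaHsd, negative for 657 (58.5%), beside -0.58 in A/J. Over all genes the sign was the same for 54.4%.

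Tested directly, the response difference was called for 850 genes (7.57%), 554 of them higher in A/J (4.93%) and 296 lower (2.64%). It exceeded 2-fold in 372 genes upward and in 67 downward. These calls treat all arrays as equally variable. With array weights by strain, which gave the A/J arrays a weight of 1.35 and the A/JOlaHsd arrays 0.407, 8 genes were called, 7 higher and 1 lower, and the median standard error was 0.301 in place of 0.247. With the 11 arrays normalized and fitted alone, 187 were called (156 higher and 31 lower). Median centring gave 1488, 703 higher and 785 lower, while it moved the median of all genes to -0.213. Leaving out 1 array gave 307 (without A/J saline 3) to 1306 (without A/JOlaHsd saline 1) genes, with 382, 448 and 536 without A/J ssRNA 3, A/J ssRNA 1 and A/JOlaHsd ssRNA 1. In all 11 of these fits, 212 of the 850 genes were called.

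**Figure D1:**
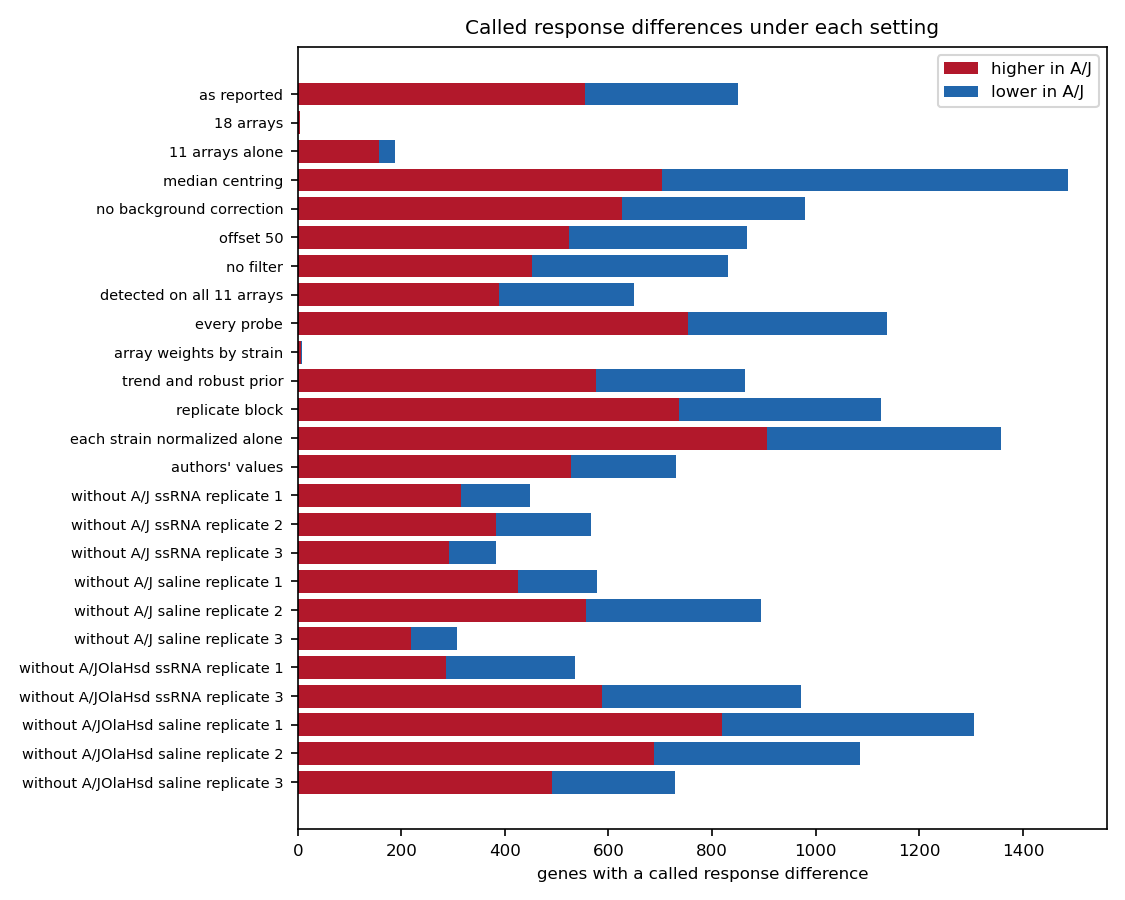
Number of genes with a called response difference (x axis) under each processing setting (y axis), with genes higher in A/J in red and lower in blue. The bar as reported stands at 850 genes, against 8 with array weights by strain, 187 with the 11 arrays alone and 5 with all 18 arrays.

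The 8 genes called with array weights were singled out after their values were seen. They were Ifi27l2a, an interferon-induced gene, Vim, the intermediate filament vimentin of mesenchymal cells and leukocytes, Prkcb and Fermt3, a kinase and an integrin activator of blood cells, Cklf, a chemokine-like factor, Tuba1b, an alpha-tubulin, Fpr2, a receptor for formyl peptides, and, lower in A/J, Erp27, a protein of the endoplasmic reticulum. Their fitted response differences were 3.16, 1.97, 2.17, 1.97, 1.73, 1.61, 1.93 and -1.28 in that order, with weighted adjusted p values of 0.0324 to 0.0428. Erp27 and Fpr2 were near background in most groups, so their fitted differences are not measured folds. The same limit holds for Cklf and Fermt3. The probe fitted for Cklf was above background on no A/JOlaHsd ssRNA array, and that for Fermt3 on no A/J saline array. Erp27 was above background on both A/JOlaHsd ssRNA arrays and on none of the other 9, so it was not tested with the 11 arrays alone. It passed the filter of 3 arrays only with the help of the A/J-MyD88 deficient arrays of the study. Fpr2 was above background on 3 of 3 A/J ssRNA arrays and on none of the other 8, passed the filter through that group, and was called in the 8 leave-one-out fits that tested it. It was at least 3.24-fold higher in A/J ssRNA legs than in A/J saline legs (means 6.24 and 4.23), and no fold can be given in A/JOlaHsd.

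The legs that held the difference were not the same for all genes. Of the 554 genes with a higher response in A/J, the strains differed in ssRNA legs only for 233 (42.1%), in saline legs only for 213 (38.4%), in both for 107 (19.3%) and in neither for 1, Evi2a. The strain difference was called for 5071 of all genes in ssRNA legs (45.1%, 2416 or 21.5% higher and 2655 or 23.6% lower in A/J) and for 5303 in saline legs (47.2%, 2502 or 22.3% higher and 2801 or 24.9% lower), so a call in a leg is common by itself. With median centring these splits were 1290 higher and 6906 lower, and 1500 higher and 6868 lower. The way the class was chosen favours a negative strain difference in saline legs and one near 0 in ssRNA legs. As a description, the 213 saline-leg genes had medians of -1.05 in saline legs and 0.136 in ssRNA legs, and all 213 were negative in saline legs. Of the 296 genes with a lower response in A/J, 152 (51.4%) differed in ssRNA legs only, 78 (26.4%) in saline legs only and 66 (22.3%) in both.

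**Figure D2:**
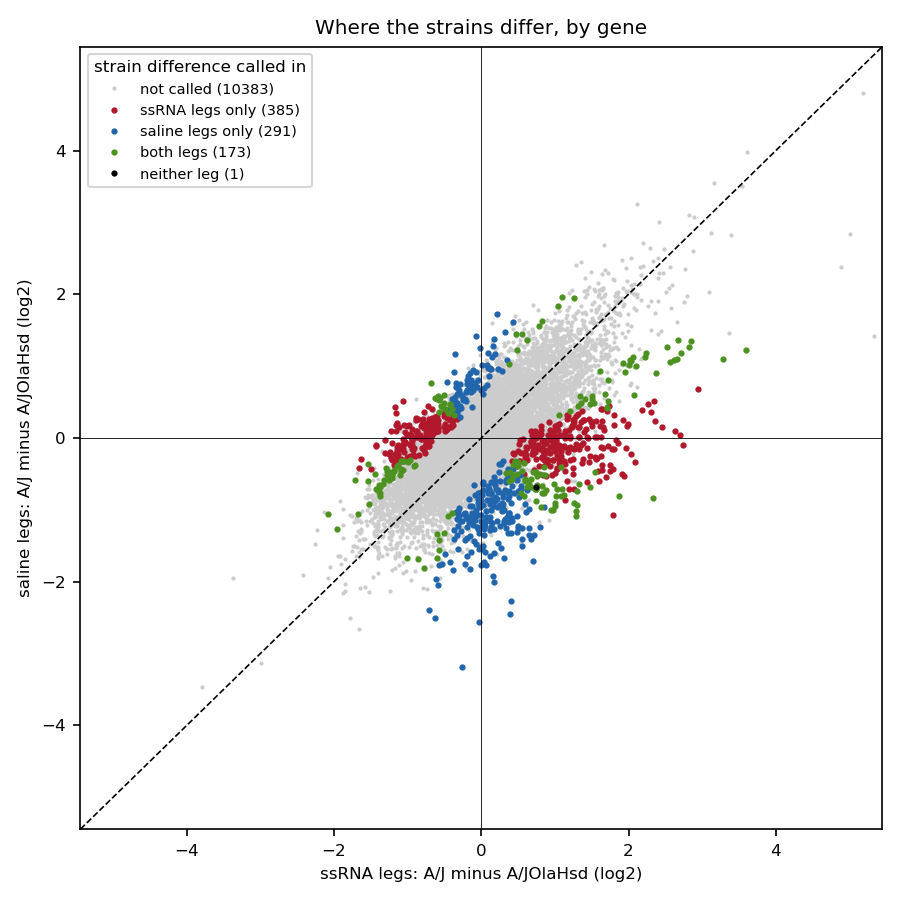
Each point is a gene, placed by the strain difference (A/J minus A/JOlaHsd, log2) in ssRNA legs (x axis) and in saline legs (y axis). Colours mark the 850 called genes by the legs in which the strains differed, and those below the dashed diagonal responded more in A/J, among them 213 saline-leg genes at a median of -1.05 in saline legs.

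The same 554 genes can be read by response. In A/J they rose and in A/JOlaHsd they had no call for 469, they had no call in A/J and fell in A/JOlaHsd for 48, they rose in both for 5, moved in opposite directions for 7, and had no call in either strain for 25. Among the 296 lower genes, 197 fell in A/J with no call in A/JOlaHsd, 47 rose in A/JOlaHsd with no call in A/J, 3 moved in opposite directions and 49 had no call in either. Of the 554 genes 415, and of the 296 genes 250, were above background in each of the 4 groups, against 8206 of all 11233 genes. On no A/JOlaHsd array above background were 36 of the 554 and 6 of the 296, against 1183 of all genes. For these the A/JOlaHsd response was not measured.

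Among genes that differed in ssRNA legs, Ifi27l2a, whose product is induced by type I interferon, had the highest response difference of the genes measured in all 4 groups. Its levels were 10.54, 9.75 and 10.16 in A/J ssRNA legs, 6.43, 6.95 and 6.21 in A/J saline legs, 7.75 and 7.90 in A/JOlaHsd ssRNA legs and 7.29, 8.10 and 6.71 in A/JOlaHsd saline legs. The A/J ssRNA legs lay above all other arrays, and the A/JOlaHsd legs overlapped. The response was 3.62 ± 0.30 in A/J and 0.46 in A/JOlaHsd (adjusted p = 1.9e-06 and 0.604), a difference of 3.16 ± 0.45 (adjusted p = 0.0034).

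Tyrobp, the signalling adaptor of myeloid receptors, stood at 8.49, 7.86 and 8.38 in A/J ssRNA legs, 5.59, 5.24 and 5.01 in A/J saline legs, 4.74 and 6.36 in A/JOlaHsd ssRNA legs and 5.64, 4.52 and 5.58 in A/JOlaHsd saline legs. Ctss, the lysosomal protease cathepsin S of antigen-presenting cells, stood at 8.61, 8.11 and 8.96 in A/J ssRNA legs, 5.60, 5.76 and 4.95 in A/J saline legs, 5.41 and 6.45 in A/JOlaHsd ssRNA legs and 5.20, 5.26 and 5.57 in A/JOlaHsd saline legs. For both genes the A/J ssRNA legs were the only high group and the saline legs of the strains overlapped. Their response differences were 2.66 ± 0.55 and 2.53 ± 0.45 (adjusted p = 0.0124 and 0.00759), and their strain differences in saline legs 0.04 and 0.09. The Tyrobp probe was above background on 1 of 2 A/JOlaHsd ssRNA arrays and 2 of 3 A/JOlaHsd saline arrays. Its A/JOlaHsd response thus rests on levels near background. Gpnmb, a glycoprotein of phagocytes that have taken up lipid or debris, had a response difference of 2.85 ± 0.64 (adjusted p = 0.0178), and Plac8, a gene of monocytes and other leukocytes, of 2.42 ± 0.53 (adjusted p = 0.016).

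Ccl8, a monocyte chemoattractant, rose in both strains and more in A/J. It stood at 9.001, 8.12 and 8.45 in A/J ssRNA legs, 4.98, 4.75 and 4.46 in A/J saline legs, 6.75 and 6.79 in A/JOlaHsd ssRNA legs and 5.12, 5.28 and 4.91 in A/JOlaHsd saline legs. The ssRNA legs lay above the saline legs in each strain, by 3.79 ± 0.28 in A/J and 1.67 ± 0.32 in A/JOlaHsd (adjusted p = 9.88e-07 and 0.014). The difference of 2.12 ± 0.43 was called (adjusted p = 0.0114).

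The replication-dependent histone genes H2ac12 and H2ac15 also had called differences, with no call in A/JOlaHsd (adjusted p = 0.762 and 0.715). H2ac12 stood at 8.67, 7.79 and 8.06 in A/J ssRNA legs, 5.49, 5.16 and 4.85 in A/J saline legs, 6.34 and 6.29 in A/JOlaHsd ssRNA legs and 6.06, 5.91 and 5.95 in A/JOlaHsd saline legs. Its A/J ssRNA legs were above, and its A/J saline legs below, all A/JOlaHsd arrays (response difference 2.68 ± 0.48, adjusted p = 0.00759). In 2 of the 11 fits with 1 array left out, among them that without A/JOlaHsd saline 3, another probe stood for H2ac12, and without A/JOlaHsd saline 3 that probe had a saline-leg difference of 0.53 (adjusted p = 0.307), opposite in sign. For H2ac15 the difference was 2.47 ± 0.64 (adjusted p = 0.0306), and it differed in ssRNA legs only. Histone genes of this family are near-identical copies, so their probes may share signal.

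A second group of genes had nearly the same level in the ssRNA legs of both strains and a low level in A/J saline legs alone. Lyz2, a lysozyme gene of phagocytes, stood at 11.38, 11.03 and 11.75 in A/J ssRNA legs, 8.45, 7.92 and 7.61 in A/J saline legs, 11.38 and 11.91 in A/JOlaHsd ssRNA legs and 10.45, 10.43 and 12.68 in A/JOlaHsd saline legs. The ssRNA legs of the strains overlapped, the A/J saline legs lay below all other arrays, and A/JOlaHsd saline 3 was the highest of all 11. The response difference was 2.94 ± 0.67 (adjusted p = 0.0189), with a strain difference of -0.26 in ssRNA legs and -3.19 in saline legs (adjusted p = 0.703 and 4.72e-05).

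Ms4a6d, a membrane protein gene of macrophages, stood at 10.03, 9.35 and 10.04 in A/J ssRNA legs, 6.07, 6.57 and 5.89 in A/J saline legs, 8.99 and 9.82 in A/JOlaHsd ssRNA legs and 7.84, 8.02 and 10.03 in A/JOlaHsd saline legs. Tnc, tenascin C of remodelling matrix, stood at 7.26, 8.05 and 7.62 in A/J ssRNA legs, 5.42, 5.12 and 4.95 in A/J saline legs, 7.15 and 7.31 in A/JOlaHsd ssRNA legs and 7.08, 6.81 and 8.40 in A/JOlaHsd saline legs. In both, A/J saline legs were the low group and the other 3 groups overlapped. The response differences were 2.85 ± 0.67 and 2.67 ± 0.48 (adjusted p = 0.0202 and 0.00759). Fn1, fibronectin, the C-type lectin receptor gene Clec4a3 and the chemokine gene Ccl9 also had the A/J saline legs as the low group, with response differences of 2.52 ± 0.63, 2.42 ± 0.47 and 2.17 ± 0.43 and saline-leg differences of -2.55, -1.71 and -2.01.

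A/JOlaHsd saline 3 held the highest level of its group for Lyz2, Ms4a6d, Tnc, Fn1, Ccl9 and Clec4a3. Without it the response differences were 2.19 for Lyz2, 2.16 for Ms4a6d, 2.21 for Tnc, 1.88 for Fn1 and 1.71 for Ccl9, all called (adjusted p = 0.00356 to 0.0227), and the saline-leg differences were -2.45, -1.76, -1.80, -1.91 and -1.54, all called. The A/JOlaHsd response, not called for these genes with all arrays, was then called for Lyz2 (1.21, adjusted p = 0.0378), Ms4a6d (1.48, adjusted p = 0.0232) and Ccl9 (0.99, adjusted p = 0.0105), and not for Tnc (0.29) or Fn1 (0.39). For Clec4a3 the response difference was then 2.17 (adjusted p = 0.0152). Of the 88 named genes with a called response difference, 19 had no call without this array: Myd88, H2ac15, Fitm1, Snai3, Evi2a, Thy1, Gpihbp1, Abcc9, Egr2, Nfkbie, H2-Ea, H2-D1, H2-M3, Mest, Mymk, Crat, Rps6, Rpl3 and Rps12. In A/JOlaHsd itself, 8 named genes were called without it and not with it (Lyz2, Ms4a6d, Ccl9, Tlr7, Ly86, Cd14, H2-DMa and H2-Ea), all of them risen, and 1 lost its call (Otud6b). Of the 213 saline-leg genes, 210 were tested without this array, and 195 were still lower in A/J saline legs and 141 still had a higher response in A/J.

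**Figure D3:**
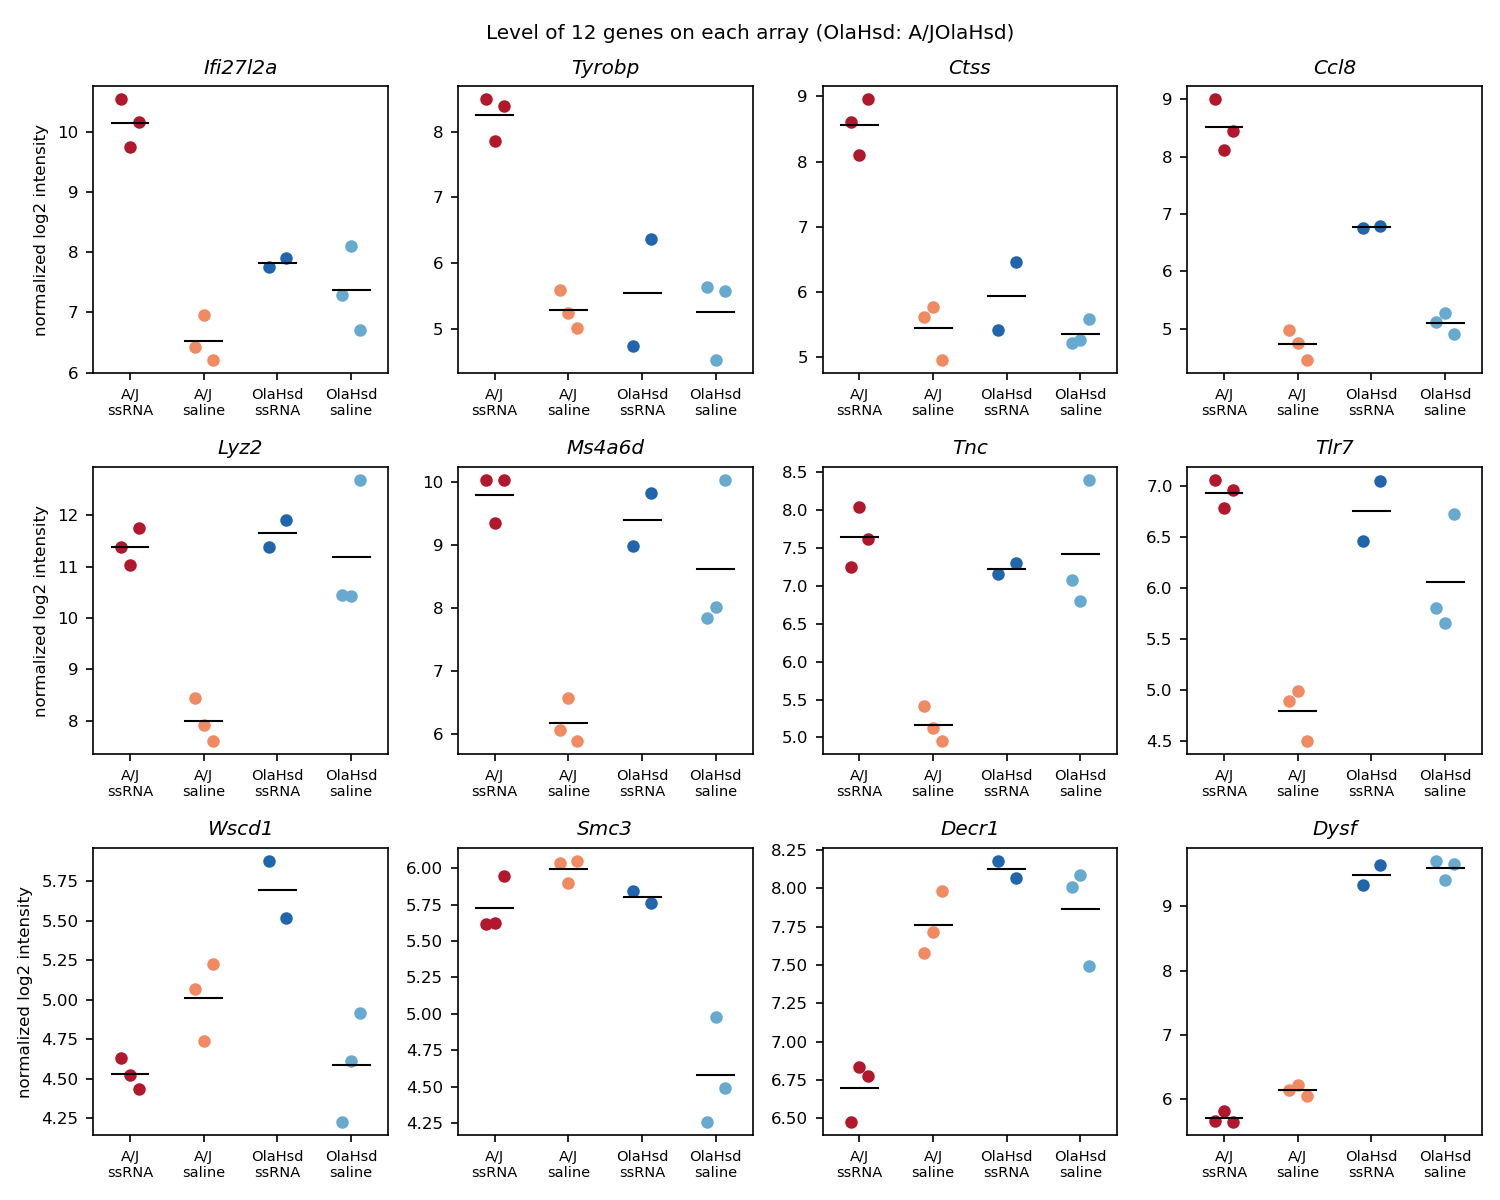
Normalized log2 intensity (y axes) of 12 genes on each of the 11 arrays, by group (x axes), with a bar at the group mean. Ifi27l2a, Tyrobp, Ctss and Ccl8 are highest in A/J ssRNA legs, Lyz2, Ms4a6d, Tnc and Tlr7 are lowest in A/J saline legs, Wscd1, Smc3 and Decr1 responded less in A/J, and Dysf is low on all 6 A/J arrays.

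The receptor pathway for ssRNA was measured through 21 of 26 listed genes. The response difference was higher in A/J for 3 (Tlr7, Myd88 and Hsp90b1, 14.3%, beside 4.93% of all genes) and lower for none. The list median was 0.404, against -0.0269 over all genes. With genes detected on all 11 arrays only, the list median was -0.0291, against -0.0824 over all genes tested there, so the positive list median rested on genes outside that filter. In A/J 8 rose and 4 fell, and in A/JOlaHsd none was called by limma (3 at an unadjusted p under 0.05). Tlr7, the receptor itself, stood at 7.06, 6.78 and 6.96 in A/J ssRNA legs, 4.89, 4.99 and 4.50 in A/J saline legs, 6.46 and 7.05 in A/JOlaHsd ssRNA legs and 5.80, 5.65 and 6.72 in A/JOlaHsd saline legs, so only the A/J saline legs stood apart. Its response difference was 1.44 ± 0.36 (adjusted p = 0.0276), 1.13 without A/JOlaHsd saline 3 (adjusted p = 0.0286). Without that array Tlr7 also rose in A/JOlaHsd, by 1.04 (adjusted p = 0.0134), as did 2 further genes of the list, Irf5 and Tlr13.

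Myd88, the adaptor of TLR7, stood at 8.32, 8.20 and 7.89 in A/J ssRNA legs, 7.08, 6.84 and 6.73 in A/J saline legs, 8.16 and 8.36 in A/JOlaHsd ssRNA legs and 7.95, 7.79 and 8.02 in A/JOlaHsd saline legs. The A/J saline legs were again the low group. The response difference of 0.91 ± 0.25 was called (adjusted p = 0.0402) and was not called in 6 of the 11 fits with 1 array left out, such as that without A/JOlaHsd saline 3 (0.86, adjusted p = 0.0668). A second Myd88 probe had a response difference of 0.55 (adjusted p over all probes = 0.117), and there A/J was higher than A/JOlaHsd in saline legs by 0.62, so the probes disagree on the saline-leg difference. Hsp90b1, a chaperone of Toll-like receptors, had a response difference of 1.05 ± 0.24 (adjusted p = 0.0189). In the fits without A/JOlaHsd ssRNA 1 or A/J saline 3, none of the 21 genes was called, and without A/J ssRNA 1 and A/JOlaHsd saline 2 the counts were 1 and 7. Among 12 cell-surface Toll-like receptors and co-receptors, the response difference was higher in A/J for 4 (33.3%, beside 4.93% of all genes): Ly86, Tlr2, Cd14 and Tlr4, at 2.00 ± 0.49, 1.29 ± 0.30, 1.17 ± 0.30 and 0.86 ± 0.22. None of the 12 was called without A/J saline 3, 1 without A/J ssRNA 1, and 2 without A/JOlaHsd ssRNA 1, A/J saline 1 or A/J ssRNA 3.

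Macrophage and monocyte markers made up the list with the highest median. The response difference was called for 21 of 33 tested members (63.6%, beside 4.93% of all genes), all higher in A/J, with a median of 1.85. In A/J, 30 of the 33 rose, and in A/JOlaHsd 3 rose (Fcgr4, Cd52 and Cd53), or 12 without A/JOlaHsd saline 3. The median response was 2.44 in A/J and 0.459 in A/JOlaHsd. Averaged over the 33 genes, the level was 8.25, 7.84 and 8.14 in A/J ssRNA legs, 5.98, 6.04 and 5.50 in A/J saline legs, 6.71 and 7.08 in A/JOlaHsd ssRNA legs and 6.24, 6.07 and 6.82 in A/JOlaHsd saline legs. The A/J ssRNA legs were above all other arrays, and the A/JOlaHsd legs overlapped through saline 3.

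The count of 21 was 7 without A/JOlaHsd ssRNA 1, 12 without A/J saline 3, 19 without A/JOlaHsd saline 3, 8 with the 11 arrays alone and 0 with array weights by strain, while the median stayed between 1.57 and 2.01 with any 1 array left out. Of the 21 genes, 9 differed between strains in ssRNA legs only, 8 in saline legs only and 4 in both. In whole muscle, more macrophages and more RNA of these genes per macrophage cannot be told apart.

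**Figure D4:**
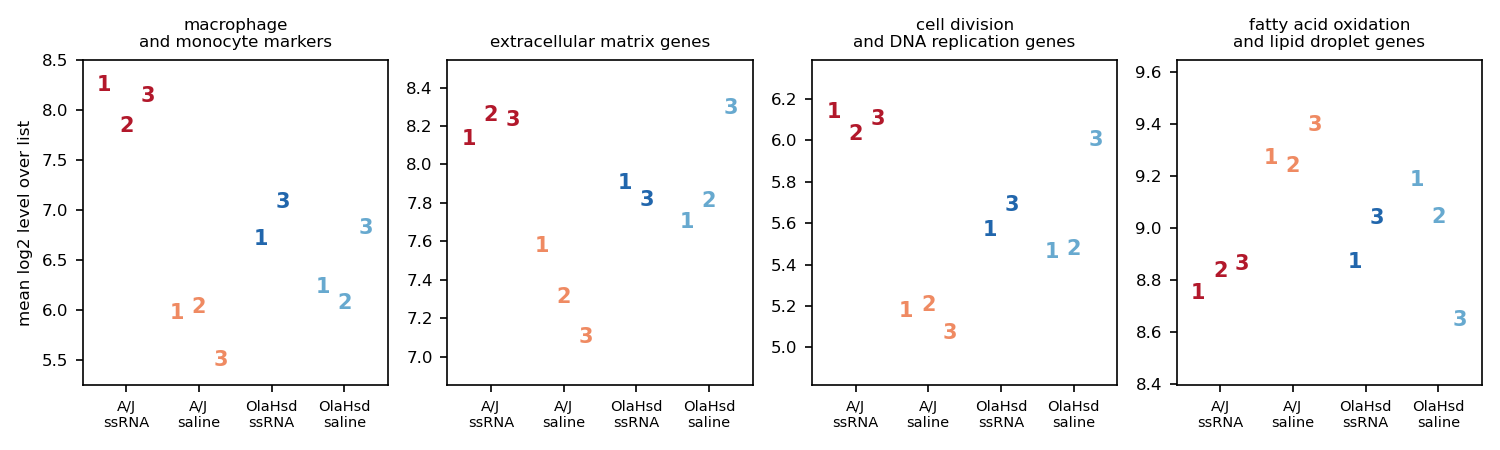
Mean log2 level (y axes) over the tested genes of 4 lists, by group (x axes), with each array shown by its number. For macrophage and monocyte markers the 3 A/J ssRNA arrays sit at 7.84 to 8.25, above every other array, and for extracellular matrix genes A/JOlaHsd saline 3 sits with the A/J ssRNA arrays.

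Lysosomal proteases and carriers, which macrophages hold in quantity, followed with 10 of 19 higher in A/J (52.6%, beside 4.93% of all genes, median 1.05). The count was 5 without A/JOlaHsd ssRNA 1 or A/J saline 3 and 6 without A/J ssRNA 1 or A/J ssRNA 3. Beside Ctss the 10 genes included Lgmn, the protease legumain (2.07 ± 0.45), Ctsh, cathepsin H (1.87 ± 0.33), and Lipa, the lysosomal acid lipase (1.48 ± 0.30), each called in all 11 fits with 1 array left out. For Lgmn the difference was 1.62 without A/JOlaHsd saline 3. In A/J 16 of the 19 rose, and in A/JOlaHsd no member was called (3 at an unadjusted p under 0.05).

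Complement genes had 5 of 13 higher (38.5%, beside 4.93% of all genes, median 1.03), 3 without A/JOlaHsd ssRNA 3. C1qb and C1qc, which encode chains of the first complement component made by macrophages, lie next to each other on chromosome 4. C1qb stood at 10.17, 9.07 and 8.54 in A/J ssRNA legs, 6.81, 6.40 and 6.32 in A/J saline legs, 7.78 and 8.17 in A/JOlaHsd ssRNA legs and 7.13, 7.56 and 8.10 in A/JOlaHsd saline legs. C1qc stood at 9.92, 8.97 and 8.90 in A/J ssRNA legs, 6.90, 6.50 and 6.37 in A/J saline legs, 7.79 and 8.16 in A/JOlaHsd ssRNA legs and 7.23, 7.55 and 8.06 in A/JOlaHsd saline legs. Both were higher in A/J ssRNA legs and lower in A/J saline legs than on any A/JOlaHsd array, with response differences of 2.38 ± 0.49 and 2.30 ± 0.42 (adjusted p = 0.0124 and 0.00759), or 2.13 and 2.08 without A/JOlaHsd saline 3 (adjusted p = 0.0218 and 0.0119). Without that array the saline-leg difference of C1qb was not called (-0.84, adjusted p = 0.0612). The third chain, C1qa, had a difference of 1.83 ± 0.41 and was above background on 1 of 2 A/JOlaHsd ssRNA arrays and on none of the 3 saline arrays.

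The promoters of 4 genes whose response differed are shown, chosen because each holds a match to a short motif. The RefSeq sequence of GRCm38.p6 runs from 250 bases before to 50 after the annotated start, on the strand of the gene. In Ctss and Myd88 the capitals mark a match to the core of the interferon-stimulated response element, GAAA, any 2 bases, GAAA, on either strand. In C1qb and C1qc they mark GAGGAA, the core read by PU.1, the factor that sets macrophage identity, again on either strand. In C1qc the match is on the opposite strand and reads TTCCTC. Ctss also holds 2 matches to the PU.1 core, which are not marked. Ctss lies at chr3:95526536-95526835, Myd88 at chr9:119339969-119340268, C1qb at chr4:136886151-136886450 and C1qc at chr4:136892865-136893164.
Ctss: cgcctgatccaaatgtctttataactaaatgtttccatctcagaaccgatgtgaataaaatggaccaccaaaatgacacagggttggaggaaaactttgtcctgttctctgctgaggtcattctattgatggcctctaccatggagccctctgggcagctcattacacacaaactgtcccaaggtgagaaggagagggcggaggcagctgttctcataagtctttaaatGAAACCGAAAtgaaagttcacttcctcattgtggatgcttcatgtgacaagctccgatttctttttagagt
Myd88: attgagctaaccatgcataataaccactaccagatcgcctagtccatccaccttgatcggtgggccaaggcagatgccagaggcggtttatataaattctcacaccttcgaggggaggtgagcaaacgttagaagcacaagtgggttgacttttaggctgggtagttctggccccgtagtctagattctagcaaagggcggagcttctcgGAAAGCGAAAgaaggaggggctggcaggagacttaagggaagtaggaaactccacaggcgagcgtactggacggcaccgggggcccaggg
C1qb: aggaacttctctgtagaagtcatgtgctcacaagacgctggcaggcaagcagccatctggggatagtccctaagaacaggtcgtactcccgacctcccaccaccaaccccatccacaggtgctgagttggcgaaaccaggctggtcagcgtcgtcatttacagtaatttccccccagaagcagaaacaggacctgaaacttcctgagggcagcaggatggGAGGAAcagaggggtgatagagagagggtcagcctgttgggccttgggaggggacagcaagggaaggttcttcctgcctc
C1qc: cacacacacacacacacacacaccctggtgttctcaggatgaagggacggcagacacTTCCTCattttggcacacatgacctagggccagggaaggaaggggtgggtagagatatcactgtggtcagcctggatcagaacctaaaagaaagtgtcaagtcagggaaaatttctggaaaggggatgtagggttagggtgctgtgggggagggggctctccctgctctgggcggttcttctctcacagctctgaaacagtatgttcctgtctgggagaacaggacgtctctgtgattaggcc
The match begins at -21 in Ctss and -40 in Myd88, and at -30 in C1qb and -193 in C1qc. Of the 89 genes that the rule of naming took, 59 matched a promoter entry. Of the 48 with a positive response difference, 3 held the interferon element and 23 the PU.1 core, against 3.44% and 28.3% of 32851 promoters of this length. Of the 11 with a negative response difference, 0 and 3 held them. The units differ, since a gene was counted if any of its promoters held a match, while the shares count single promoters. Genes with several promoters thus had more chances, and the named genes were partly drawn from macrophage lists. A match is a description of these letters and shows no binding.

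Chemokine genes had 9 of 24 higher in A/J (37.5%, beside 4.93% of all genes, median 0.658), against 11 that rose in A/J, and 2 that rose and 1 that fell in A/JOlaHsd. The count was 4, 5 and 5 without A/JOlaHsd ssRNA 1, A/J saline 3 and A/J ssRNA 1. Beside Ccl8 and Ccl9, Pf4, the platelet factor that macrophages also make, and Ccl7, a monocyte attractant, had response differences of 2.22 ± 0.48 and 2.20 ± 0.42. Ccl7 was above background on no A/JOlaHsd ssRNA array and was at least 2.54-fold higher in A/J ssRNA legs than there (means 6.26 and 4.66). Of 8 chemokine receptors, 2 were called: Cx3cr1, the fractalkine receptor of monocytes (2.30 ± 0.48), and Cxcr4, the CXCL12 receptor (1.83 ± 0.33). Both differed in ssRNA legs only, and 1 was called without A/JOlaHsd ssRNA 1.

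Of 36 interferon-induced genes, 6 had a higher response in A/J (16.7%, beside 4.93% of all genes) and none a lower one (median 0.688). Of the 36, 22 rose in A/J and none was called in A/JOlaHsd (7 at an unadjusted p under 0.05). Their mean level was 7.835, 7.19 and 6.81 in A/J ssRNA legs, 6.64, 5.885 and 5.99 in A/J saline legs, 6.38 and 6.47 in A/JOlaHsd ssRNA legs and 5.96, 6.11 and 6.05 in A/JOlaHsd saline legs, so array 1 was the highest in both groups of A/J. The count was 3 without A/JOlaHsd ssRNA 1, 3 without A/J saline 3, 4 without A/J saline 2 or A/J ssRNA 1 and 7 without A/J saline 1. The median was 0.426 without A/J ssRNA 1, 0.449 without A/J saline 2, 0.995 without A/J saline 1 and 1.06 without A/J ssRNA 3. Lgals3bp, a secreted glycoprotein, differed by 1.73 ± 0.36 and Ifitm1, an antiviral membrane protein, by 1.33 ± 0.30, beside Ifi27l2a. Trim30a, a ubiquitin ligase family gene, was above background on no A/JOlaHsd array and was at least 4.07-fold higher in A/J ssRNA legs than in A/JOlaHsd ssRNA legs (means 6.94 and 4.23). In saline legs it was also higher in A/J, at least 1.57-fold (means 5.44 and 4.26). It is among the 6 called genes, though its response in A/JOlaHsd was not measured.

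Antigen presentation through MHC class II had 5 of 11 genes higher in A/J (45.5%, beside 4.93% of all genes, median 1.33). All 11 rose in A/J and none was called in A/JOlaHsd, where 7 passed an unadjusted p of 0.05 and the median response was 0.756. Without A/JOlaHsd saline 3, 5 of the 11 rose in A/JOlaHsd (H2-DMa, H2-DMb1, H2-DMb2, H2-Ea and H2-Eb1) and the median was 1.09. H2-DMa, which loads peptides, and H2-Ea had response differences of 1.46 ± 0.36 and 1.39 ± 0.38 with the strains differing in saline legs only. Without A/JOlaHsd saline 3 these were 1.11 and 1.28, called for H2-DMa and not for H2-Ea (adjusted p = 0.0224 and 0.0701). Ciita, the master regulator of these genes, was above background on all A/J ssRNA arrays and on no A/J saline array, at least 2.41-fold higher (means 5.82 and 4.44), and its A/JOlaHsd legs overlapped. The list count was 3 without A/JOlaHsd ssRNA 1, A/J saline 3 or A/J ssRNA 2 and 8 without A/J saline 1. Among 20 class I and immunoproteasome genes, 15 rose in A/J and 2 in A/JOlaHsd. A called difference was found for 2 (10.0%, beside 4.93% of all genes), H2-D1 (1.32 ± 0.35) and H2-M3 (1.20 ± 0.32), neither of them without A/JOlaHsd saline 3. The mean level of the 20 genes was 7.73, 7.29 and 7.195 in A/J ssRNA legs, 6.68, 6.096 and 6.15 in A/J saline legs, 6.67 and 6.84 in A/JOlaHsd ssRNA legs and 6.29, 6.27 and 6.245 in A/JOlaHsd saline legs, with array 1 highest in both groups of A/J. Without A/J saline 1 the count was 5, and without A/J ssRNA 1 it was 0. Casp1, the inflammasome protease, and Il18, its substrate, were the 2 of 14 inflammasome genes called (14.3%, beside 4.93% of all genes). For Casp1 the difference was 1.68 ± 0.37, or 1.41 without A/JOlaHsd saline 3 (adjusted p = 0.0217). Il18 was above background on no A/J saline and no A/JOlaHsd ssRNA array, so only bounds hold: it was at least 1.99-fold higher in A/J ssRNA legs than in A/J saline legs (means 5.54 and 4.42) and at least 1.54-fold higher than in A/JOlaHsd ssRNA legs (mean 4.44). The count was 4 without A/JOlaHsd saline 1 or A/JOlaHsd ssRNA 3.

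Of the other leukocyte lists, 1 gene each was called, beside 4.93% of all genes. Of 5 neutrophil markers it was Fpr2, of 14 T and NK cell markers Thy1 (also made by fibroblasts, 1.22 ± 0.34) and of 4 B and plasma cell markers Blnk. Blnk was above background on A/J ssRNA arrays alone and passed the filter through them, at least 1.27-fold higher than in A/J saline legs (means 4.89 and 4.39), and no fold can be given against A/JOlaHsd ssRNA legs. Each of the 3 counts was 0 without A/J ssRNA 1, without A/J ssRNA 3 and, for neutrophil and T and NK cell markers, without A/J ssRNA 2, and for T and NK cell and B and plasma cell markers, without A/J saline 3. In the 3 fits without an A/J ssRNA array Fpr2 failed the filter and was not tested, so the neutrophil zeros there were set by the filter. The medians of the neutrophil, T and NK cell, and B and plasma cell lists were 0.733, 0.259 and 0.153. Of the 14 T and NK cell markers, 8 rose in A/J and 2 in A/JOlaHsd, Nkg7 and Klrd1. A total of 33 genes rose in both strains, of which 5 had a called difference (Ccl8, Cd52, Fcgr4, Ptpn6 and Alox5ap), and Nkg7, Klrd1, Ctsw and Ccl5 were chosen from them after their values were seen. Nkg7, a granule membrane protein, stood at 6.22, 5.91 and 5.62 in A/J ssRNA legs, 4.53, 4.44 and 4.32 in A/J saline legs, 6.30 and 5.98 in A/JOlaHsd ssRNA legs and 4.68, 4.27 and 4.75 in A/JOlaHsd saline legs.

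In Nkg7 the ssRNA legs of the strains overlapped and lay above all saline legs. Nkg7 was above background on no A/J saline array and was at least 2.58-fold higher in A/J ssRNA legs (means 5.92 and 4.43), and its response difference was not called (adjusted p = 0.849). Ctsw, cathepsin W of cytotoxic cells, was at least 2.54-fold higher in ssRNA than saline legs of A/J (means 5.89 and 4.34) and at least 1.97-fold higher in A/JOlaHsd (means 5.76 and 4.40). Klrd1, a receptor of NK cells, and Ccl5, a chemokine that these cells release, were above background on no A/JOlaHsd saline array. They rose by 2.40 and 2.47 in A/J, and in A/JOlaHsd they were at least 2.27-fold and 2.39-fold higher in ssRNA than in saline legs (means 5.97 and 4.35, and 6.04 and 4.36). Their fitted response differences were both 0.79 and were not called (adjusted p = 0.0621 and 0.132). The 95% intervals were 0.263 to 1.315 and 0.120 to 1.453, so an equal response was not shown. In ssRNA legs A/J was higher by 0.91 and 1.34 (adjusted p = 0.000919 and 0.000277).

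Cell division genes had 12 of 27 higher in A/J (44.4%, beside 4.93% of all genes, median 0.983), with 18 that rose in A/J and none called in A/JOlaHsd (3 at an unadjusted p under 0.05). The count was 7 without A/JOlaHsd ssRNA 1 and 7 without A/J saline 3. Prc1, which organises the mitotic spindle midzone, stood at 7.52, 7.48 and 7.31 in A/J ssRNA legs, 5.27, 5.37 and 4.46 in A/J saline legs, 6.71 and 7.06 in A/JOlaHsd ssRNA legs and 5.70, 6.27 and 7.64 in A/JOlaHsd saline legs. The A/J saline legs were lowest and A/JOlaHsd saline 3 was highest of all 11 arrays (response difference 2.06 ± 0.52, adjusted p = 0.0279, and 1.525 without that array, adjusted p = 0.0192). Cenpa, the centromere histone, had 1.80 ± 0.35, and Top2a, the topoisomerase of dividing cells, was above background on all A/J ssRNA arrays and no A/J saline array, at least 2.32-fold higher (means 5.76 and 4.27).

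Extracellular matrix genes had 10 of 36 higher (27.8%, beside 4.93% of all genes, median 0.915), with 23 that rose in A/J and none called in A/JOlaHsd, where 3 passed an unadjusted p of 0.05 and the median response was -0.0673. Their mean level was 8.13, 8.26 and 8.23 in A/J ssRNA legs, 7.57, 7.31 and 7.10 in A/J saline legs, 7.90 and 7.815 in A/JOlaHsd ssRNA legs and 7.70, 7.81 and 8.29 in A/JOlaHsd saline legs. In saline legs 15 of the 36 were lower and 1 higher in A/J, and in ssRNA legs 9 were higher and none lower. Col1a1, the alpha 1 chain of type I collagen, differed in ssRNA legs only (response difference 2.09 ± 0.48, adjusted p = 0.0189), and Lox, which crosslinks collagen, in saline legs only (1.75 ± 0.44, adjusted p = 0.0272). The count was 4 without A/JOlaHsd ssRNA 1, 4 without A/J saline 3, 5 without A/JOlaHsd ssRNA 3 or A/J ssRNA 3 and 16 without A/JOlaHsd saline 1. Of 17 fibroblast and progenitor markers 6 were higher (35.3%), among them Col14a1 (1.44 ± 0.32), Mfap5 (1.35 ± 0.34) and S100a4 (1.34 ± 0.30). That count was 1 without A/JOlaHsd ssRNA 1, 2 without A/J saline 3 or A/J ssRNA 3 and 3 without A/JOlaHsd saline 3 or A/J ssRNA 2.

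Genes of muscle repair were read against the 4.93% of all genes with a higher response in A/J. Of 21 myogenic regulators and fusion genes 3 were higher in A/J (14.3%, median 0.61): Vim, Mest and Mymk. The count was 5 without A/JOlaHsd saline 1 and 1 without A/JOlaHsd saline 3, A/JOlaHsd ssRNA 3, A/J saline 3 or any 1 of the A/J ssRNA arrays. Of the 11 fits with 1 array left out, Vim was called in all 11, Mymk in 4 and Mest in 3. Vim is also made by mesenchymal cells and leukocytes, so its call is not particular to myogenic cells. Vim stood at 10.02, 9.80 and 9.95 in A/J ssRNA legs, 7.94, 7.55 and 7.64 in A/J saline legs, 8.54 and 8.64 in A/JOlaHsd ssRNA legs and 8.28, 7.97 and 8.79 in A/JOlaHsd saline legs, and its response difference was 1.97 ± 0.27 (adjusted p = 0.00327). The A/J ssRNA legs were above and the A/J saline legs below all A/JOlaHsd arrays. Mymk, the myoblast fusion protein myomaker, had a difference of 1.16 ± 0.30 and was above background on no A/JOlaHsd ssRNA array, at least 1.54-fold below A/J ssRNA legs (means 5.54 in A/J and 4.22 in A/JOlaHsd). Of 22 membrane repair genes, which include partners of dysferlin, 4 were higher (18.2%): S100a11 and S100a10, ligands of annexins, at 1.68 ± 0.32 and 1.68 ± 0.37, and the annexin genes Anxa4 and Anxa2 at 1.27 ± 0.31 and 1.20 ± 0.30. The median of the list was 0.185, and the count was 7 without A/JOlaHsd saline 1, 1 without A/JOlaHsd ssRNA 1 and 2 without A/J saline 3.

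Contractile and metabolic genes stood beside shares of 4.93% higher and 2.64% lower over all genes. None of 18 fast fibre genes was called by limma (1 at an unadjusted p under 0.05), and of 15 slow fibre genes 1 was lower in A/J, the alpha myosin heavy chain gene Myh6 (-1.16 ± 0.29), with list medians of 0.0307 and 0.227 that turned negative with median centring. None of 15 excitation-contraction coupling genes (3 at an unadjusted p under 0.05), of 14 dystrophin complex genes (1) or of 16 ubiquitin ligase and autophagy genes (2) was called. Of 38 respiratory chain genes 1 was lower in A/J, Ndufa10 of complex I (-0.91 ± 0.23), and of 27 fatty acid oxidation and lipid droplet genes 3 were lower, with list medians of -0.355 and -0.472. In A/J 10 and 9 genes of these lists fell, and in A/JOlaHsd none was called, at an unadjusted p under 0.05 either. Without A/JOlaHsd saline 1 the counts were 4 and 6, and without A/J saline 3 or A/JOlaHsd ssRNA 1 they were 0 and 1. None of 25 citric acid cycle genes was called (6 at an unadjusted p under 0.05, median -0.399).

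The other lists had 3 calls or fewer, beside 4.93% of all genes higher and 2.64% lower. Of 26 ribosomal protein genes 3 were higher in A/J (11.5%), 0 without A/JOlaHsd ssRNA 1, A/J saline 1, A/J ssRNA 1 or A/J ssRNA 3 and 1 without A/JOlaHsd saline 3, A/J saline 3 or A/J ssRNA 2. Of 29 cytokine and growth factor genes 2 were higher (6.9%), and 5 were without A/JOlaHsd saline 1, A/JOlaHsd saline 2 or A/JOlaHsd ssRNA 3. These 2 were Il18 and the TGF-beta receptor gene Tgfbr2 (1.25 ± 0.22). Of 24 immediate early and stress genes 2 were higher, the transcription factor gene Egr2 (1.00 ± 0.30), which also stands for Schwann cells, and Cryab, a small heat shock protein (0.94 ± 0.25). A single gene was called of 25 glycolysis and glycogen genes (Pygb, a glycogen phosphorylase, 1.27 ± 0.29) and of 12 NF-kappaB genes (Nfkbie, an inhibitor), both higher. Nfkbie was above background on no A/J saline array and was at least 1.52-fold higher in A/J ssRNA legs (means 5.15 and 4.35). A single gene was lower of 18 endothelial genes (Gpihbp1, the anchor of lipoprotein lipase, -1.17 ± 0.33) and of 12 smooth muscle and pericyte genes (Abcc9, a potassium channel subunit, -0.92 ± 0.27). Each of these single calls was lost, and neither immediate early gene was called, in 1 or more of the fits with 1 array left out. For Schwann cell, slow fibre and glycolysis genes the sign of the list median, -0.0986, 0.227 and -0.165, was opposite to that of the called gene. No adipocyte, erythroid, skin or circadian clock gene was called (9, 6, 3 and 15 tested, 2, 1, 1 and 1 at an unadjusted p under 0.05).

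**Figure D5:**
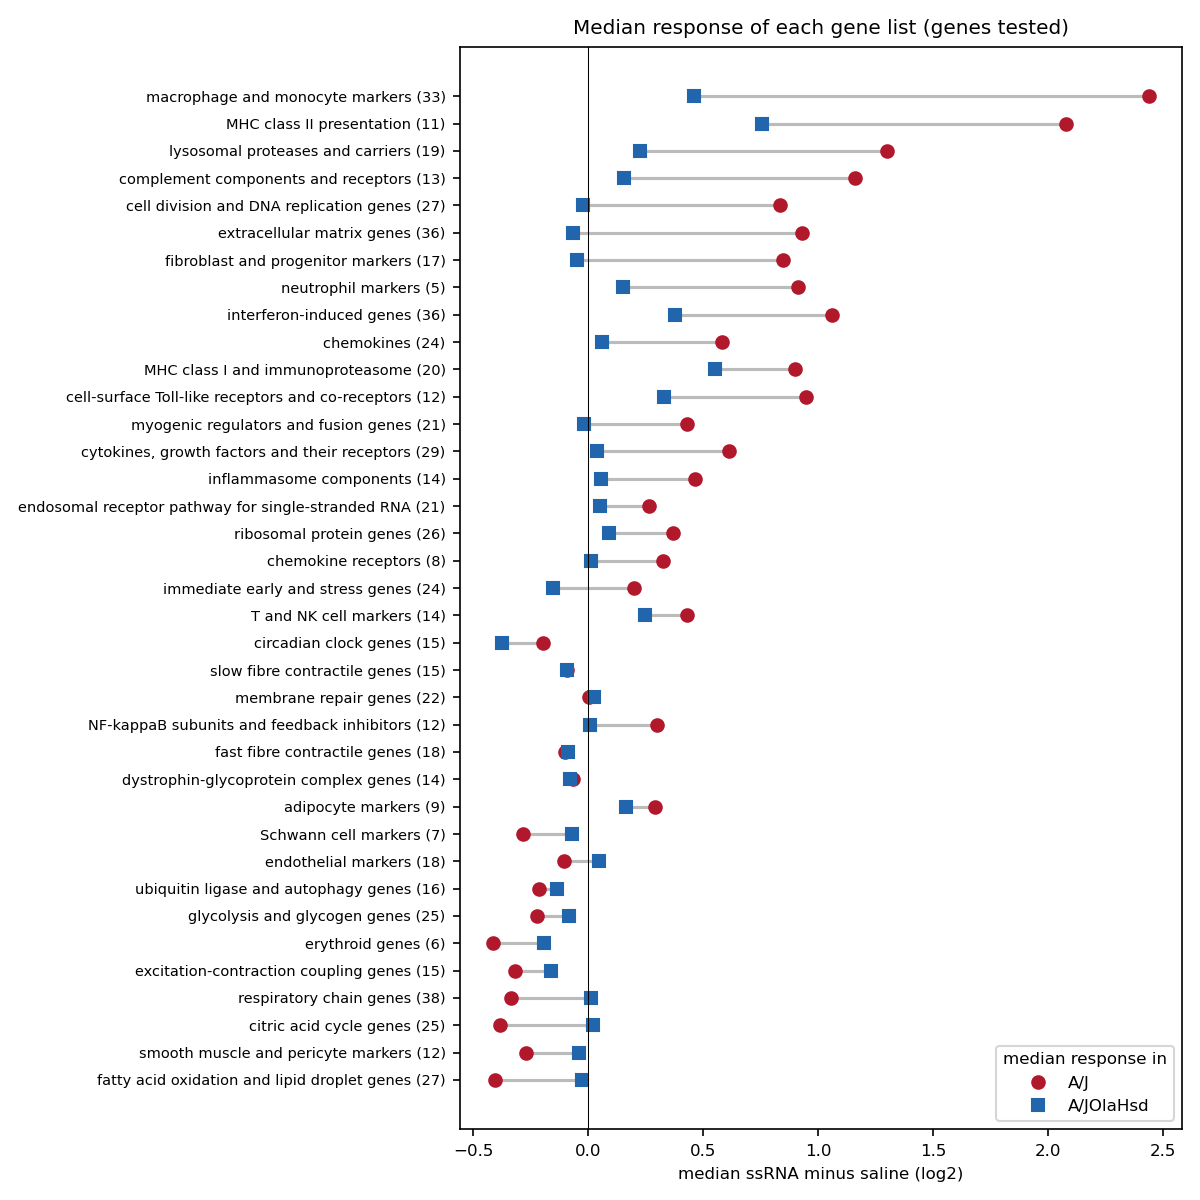
Median response (ssRNA minus saline, log2, x axis) of the tested genes of each list in A/J (red circles) and A/JOlaHsd (blue squares), ordered by the median response difference, for lists with at least 5 genes tested, whose number is in brackets. Macrophage markers lie at 2.44 in A/J and 0.459 in A/JOlaHsd, and fatty acid oxidation genes at -0.407 and -0.0284.

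Decr1, a reductase of fatty acid oxidation in mitochondria, stood at 6.48, 6.83 and 6.77 in A/J ssRNA legs, 7.58, 7.72 and 7.98 in A/J saline legs, 8.18 and 8.07 in A/JOlaHsd ssRNA legs and 8.01, 8.09 and 7.49 in A/JOlaHsd saline legs. The A/J ssRNA legs were below all other arrays, which overlapped in part (response difference -1.32 ± 0.28, adjusted p = 0.0142). Fitm1, a protein of lipid droplet formation, and Crat, carnitine acetyltransferase, had response differences of -1.50 ± 0.39 and -1.05 ± 0.28. Wnt4, a secreted signalling protein, fell by 1.34 in A/J and differed by 0.01 in A/JOlaHsd, a response difference of -1.34 ± 0.27 (adjusted p = 0.0119).

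The genes with the most negative response differences among those measured in all 4 groups included several that rose in A/JOlaHsd. Wscd1, a sulfotransferase-like gene, stood at 4.63, 4.52 and 4.43 in A/J ssRNA legs, 5.07, 4.74 and 5.23 in A/J saline legs, 5.88 and 5.52 in A/JOlaHsd ssRNA legs and 4.22, 4.61 and 4.92 in A/JOlaHsd saline legs. Smc3, a subunit of cohesin, stood at 5.62, 5.62 and 5.94 in A/J ssRNA legs, 6.04, 5.90 and 6.05 in A/J saline legs, 5.85 and 5.76 in A/JOlaHsd ssRNA legs and 4.26, 4.98 and 4.49 in A/JOlaHsd saline legs. In Wscd1 the A/JOlaHsd ssRNA legs were the high group, and in Smc3 the A/JOlaHsd saline legs were the low group. Their response differences were -1.59 ± 0.26 and -1.49 ± 0.26 (adjusted p = 0.00499 and 0.00745), with A/JOlaHsd responses of 1.11 and 1.23 (adjusted p = 0.00882 and 0.00485). The probes of both genes were above background on 1 of 3 A/JOlaHsd saline arrays, so these rises start from levels near background.

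Leo1, of the Paf1 transcription elongation complex, Otud6b, a deubiquitinase, and S100a14 also rose in A/JOlaHsd, by 1.01, 0.81 and 1.19, and had response differences of -1.51 ± 0.31, -1.53 ± 0.26 and -1.36 ± 0.30. The S100a14 probe, too, was above background on 1 of 3 A/JOlaHsd saline arrays. Asb12 (-1.57 ± 0.39), Rusc1 (-1.34 ± 0.24), Snai3 (-1.33 ± 0.36) and Gatb (-1.33 ± 0.27), a subunit of mitochondrial glutaminyl-tRNA amidotransferase, fell in A/J and had no call in A/JOlaHsd. In all 11 fits with 1 array left out, the calls of Wscd1, Otud6b, Leo1, Smc3, S100a14, Wnt4, Rusc1, Gatb and Decr1 remained, and those of Asb12, Fitm1 and Snai3 remained in 7, 4 and 4. Of the highest response differences, Ifi27l2a, H2ac12 (by another probe in 2 of them), Tnc, Ctss, Clec4a3 and Plac8 were called in all 11, Tyrobp in 10, Lyz2 and Gpnmb in 9, Ms4a6d in 8, and Fn1 and H2ac15 in 6. Of the 88 named genes with a call, 39 were also called with the 11 arrays alone and 3 with array weights by strain.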

How the data were processed

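Gene expression in tibialis anterior was measured on Illumina bead arrays, and probe values came from GenomeStudio, per the submitters' processing notes. The main values were the deposited intensities of 45281 probes, not normalized, with the deposited detection p-value of each probe on each array. A further deposited table, with intensities normalized by the authors separately for each strain, was used as an alternative only. Intensities of 17 arrays (without A/JOlaHsd ssRNA array 2) were background-corrected and quantile-normalized together with neqc (offset 16) and taken to log2 in limma 3.58.1 under R 4.3.3. A probe was kept if its detection p was below 0.05 on 3 arrays or more (20825 probes), and the probe with the highest mean stood for each of 11233 genes, of which 4299 had several kept probes. Gene symbols came from the platform annotation: it gave 1 symbol for 34885 probes, several for 18 and none for 10378, and RefSeq names, matched for 34807 probes, changed 0 of them.

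A mean per group was fitted with lmFit, contrasts were tested with eBayes (two-sided, Benjamini-Hochberg over all genes), and a gene was called under an adjusted p of 0.05. All adjusted p values are from limma. The spread was estimated over 6 groups, including the A/J-MyD88 deficient arrays, with 11 residual and 5.01 prior degrees of freedom. Bounds ("at least") were given where a group was above background on no array, against the higher, per array, of the lowest signal among detected probes and the probe's own. The pairing check over replicate numbers found correlated A/J legs and no correlated A/JOlaHsd legs, and the fit without the block was kept as the main one. The procedure was tested on simulated data. The precision is limited by the number of arrays.

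Named genes were Dysf, Myd88 and Tlr7, the 12 largest positive and 12 largest negative called response differences with an array above background in each group, the 4 largest of each class of legs by the same condition, and up to 4 called members of each gene list. Clone and predicted names were passed over. The comparison, its genes and its lists were chosen with earlier results of these data known. Alternatives changed the arrays fitted, normalization, background correction, offset, filter, probe choice, array weights, prior, replicate block, the deposited values and each array in turn. The A/J-MyD88 deficient arrays entered no comparison here.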

Additional observations from a re-analysis of the deposited data

Results flagged for a closer look

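The response differed between the strains by a test of the difference itself for 554 genes with a higher and 296 genes with a lower response in A/J. Of these, 10 moved in opposite directions with a call in each strain, and they were singled out after their values were seen, Otud6b excepted. Pcdh7 (1.80), Cklf (1.73), Atf6b (1.62), Creld2 (1.28), Zdhhc9 (1.19), Rap2a (1.09) and Ffar4 (0.94) rose in A/J and fell in A/JOlaHsd. Mtmr1 (-0.94), Pecr (-1.27) and Otud6b (-1.53) fell in A/J and rose in A/JOlaHsd. The values in brackets are response differences. Cklf, a chemokine-like factor, differed by 0.99 in A/J and by -0.74 in A/JOlaHsd (adjusted p in limma = 9.57e-05 and 0.0204), and Pecr, a reductase of peroxisomal fatty acid metabolism, by -0.35 and 0.92 (adjusted p = 0.0415 and 0.00264). Pcdh7, Zdhhc9, Rap2a and Ffar4 were above background on no A/JOlaHsd ssRNA array, and Pecr on no A/JOlaHsd saline array. The probe fitted for Cklf was also above background on no A/JOlaHsd ssRNA array, so its fall there is not a measured fold. No array was tested as an outlier of its group, since groups of 2 or 3 are too small for that check. Levels of single arrays beside the others of their group are given as description only.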

How the results depend on the processing

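The count of called response differences was 5 with all 18 arrays, 187 with the 11 arrays alone, 1488 with median centring, 8 with array weights by strain, 1358 with each strain normalized alone and 307 to 1306 with 1 array left out. It was 650 to 1138 under the other settings, among them 730 with the authors' values. The higher share was 65.2% as reported and 47.2% with median centring. The A/J response was called for 222 genes with 18 arrays and for 1537 (without A/J saline 3) to 3017 with 1 array left out. The A/JOlaHsd response was called for 31 genes with 18 arrays, 12 with 11, 0 with median centring, array weights, genes detected on all 11 arrays or each strain normalized alone, 116 without background correction, 100 with an offset of 50, 435 without a filter, 468 for every probe and 111 with the authors' values. With 1 array left out it was 144 to 516, among them 357 without A/JOlaHsd saline 1, 516 without saline 3, 461 without ssRNA 1 and 384 without ssRNA 3.

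The strain difference in ssRNA legs was called for 1784 genes with 18 arrays, 8196 with median centring, 8823 for every probe (a larger number of tests) and 4001 to 5565 with 1 array left out. In saline legs these were 822, 8368, 9246 and 4556 to 5522. The share of higher response differences called in saline legs only, 38.4% as reported, was 0% with 18 arrays and with array weights, 26.3% with 11 arrays, 52.9% with median centring, 19.3% without background correction, 32.9% with an offset of 50, 50.5% for genes detected on all 11 arrays, 33.1% for every probe and 26.1% to 45.2% with 1 array left out. For lower ones, 26.4% as reported, it was 10.8% with median centring, 15.6% without a filter, 19.1% for genes detected on all 11 arrays, 0% with array weights and 21.4% to 34.2% with 1 array left out. With 18 arrays, where A/JOlaHsd ssRNA 2 holds no signal, the response differences of Dysf (1.44), Blnk (-0.67), Abcc9 (0.65), Ndufa10 (1.60) and Crat (0.65) changed sign. Apart from that array's signal and the larger number of tests, the cause of these changes was not tested.

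Replicate numbers are shared between legs, and the sources do not say that a number marks a mouse. In A/J, same-numbered arrays deviated together (r = 0.402, 0.435 and 0.137, each the highest for its number), so the numbers may pair the legs there. For number 3 the r of 0.137 was close to the 0.0928 with another number. In A/JOlaHsd, with 2 pairs, r was -0.126 and -0.105, which does not settle a pairing. The standard errors and adjusted p values of the main fit do not take a pairing into account. With the replicate block the counts were 1127 for the response difference, 2595 and 226 for the A/J and A/JOlaHsd responses, and 5086 and 5303 for ssRNA and saline legs. Of the named genes, Crat, Gpihbp1, H2-Ea, Mest and Myh6 had no called response difference with the block (adjusted p = 0.0502 to 0.104), and no other named call changed. The array signal of A/JOlaHsd and its 2 ssRNA arrays limit the precision of every response difference.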
